A study of Bos taurus with 12 samples.

Results

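ENSBTAG00000005718, ENSBTAG00000019725 and ENSBTAG00000007303 are 3 of the 24616 genes counted in RNA from the fat layer of cow's milk. They were selected on 3 measured properties, being abundant, having a share of the counts that varied widely from library to library, and tending to be higher with lysine. Their abundance, their spread and their lysine difference are therefore given as descriptions, with no test. The study sampled 6 early-lactation Holstein cows, and each cow gave 1 control library (code 0) and 1 library under postruminal lysine (code 63), for 12 libraries in all. The treatment label of the lysine libraries reads as 63 days, and every library has 2 further codes that the labels leave undefined: B, which is 1 or 2 and the same in both libraries from 1 cow, and P, which runs from 1 to 4 and differs between them. Both groups are Holstein milk from early lactation, and the labels state no other treatment, no dose and no age.

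Milk fat globules bud from mammary secretory cells and can carry along slivers of their cytoplasm, so RNA recovered with the fat gives a view of the gland that needs no biopsy. Such RNA is dominated by a small set of very abundant transcripts, among which those of milk proteins are usually prominent. Lysine is an essential amino acid and a building block of those proteins, and supplying it past the rumen keeps it from being used by rumen microbes.

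No gene name was found for the 3 IDs: of the 24616 IDs in the count table, 0 matched among the 37063 RefSeq genes available here. What these genes encode, where they lie and how long they are is therefore not given, and marker genes of mammary epithelium or of immune cells could not be checked. All values below are read counts per gene, given as a share of the library total or as normalised CPM, a count scaled to a common library size that is adjusted by trimmed mean of M-values (TMM) factors. Neither is per gene length, so the values compare libraries within 1 gene. Ranks of abundance and ratios between genes below are of read counts only. In bulk RNA, a larger share of cells of a type and more RNA per cell cannot be told apart.

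Library totals ran from 5.45 to 56.6 M counts (M for mega) and genes detected from 10687 to 15319, the lowest being the control library of cow 4394. The TMM factors ran from 0.44 to 1.41. The 2 lowest, 0.44 and 0.58, belonged to the lysine libraries of cows 4383 and 4381, which were also the 2 highest libraries of each of the 3 genes in normalised CPM. All 3 genes passed the filter on low counts. Their smallest count in any library was 1183, so counting error was small: the 95% Wilson interval of a share reached at most 5.70% of the share on either side, and covers counting error only.

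ENSBTAG00000005718 was the second most abundant gene by mean share of counts, at 18.6% (SD 11.5, n = 12). Its control share was 22.9% in cow 4319, 11.9% in cow 4345, 10.1% in cow 4381, 21.3% in cow 4383, 4.04% in cow 4394 and 13.7% in cow 4408. Its lysine share in the same order of cows was 17.2%, 20.3%, 26.7%, 45.8%, 3.65% and 25.8%. Cow 4394 was thus the lowest in both groups, and the share was larger with lysine in 4 cows and smaller in cows 4319 and 4394. The groups overlapped between 4.04% and 22.9%, with the lysine libraries of cows 4381, 4383 and 4408 above every control. From the lowest to the highest library the share differed 12.5-fold.

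ENSBTAG00000019725 ranked ninth, at a mean share of 0.84% (SD 0.62, n = 12). In control libraries it held 0.316% in cow 4319, 0.429% in cow 4345, 0.548% in cow 4381, 0.611% in cow 4383, 0.680% in cow 4394 and 0.713% in cow 4408. In lysine libraries it held 0.296%, 0.984%, 2.31%, 1.26%, 0.285% and 1.68% in that order. The control libraries lay within a 2.26-fold range while the lysine libraries ran over 8.11-fold, with 4 lysine libraries above every control and the lysine libraries of cows 4319 and 4394 below every control.

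ENSBTAG00000007303 was far less abundant than the other two, ranking 203 at a mean share of 0.0197% (SD 0.0092, n = 12). Its control share was 0.0150% in cow 4319, 0.0132% in cow 4345, 0.0105% in cow 4381, 0.0224% in cow 4383, 0.0137% in cow 4394 and 0.0095% in cow 4408. With lysine it was 0.0217%, 0.0314%, 0.0336%, 0.0347%, 0.0115% and 0.0196%. The 3 highest libraries were the lysine libraries of cows 4383, 4381 and 4345, the lowest was the control of cow 4408, and the groups overlapped between 0.0115% and 0.0224%.

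**Figure D1:**
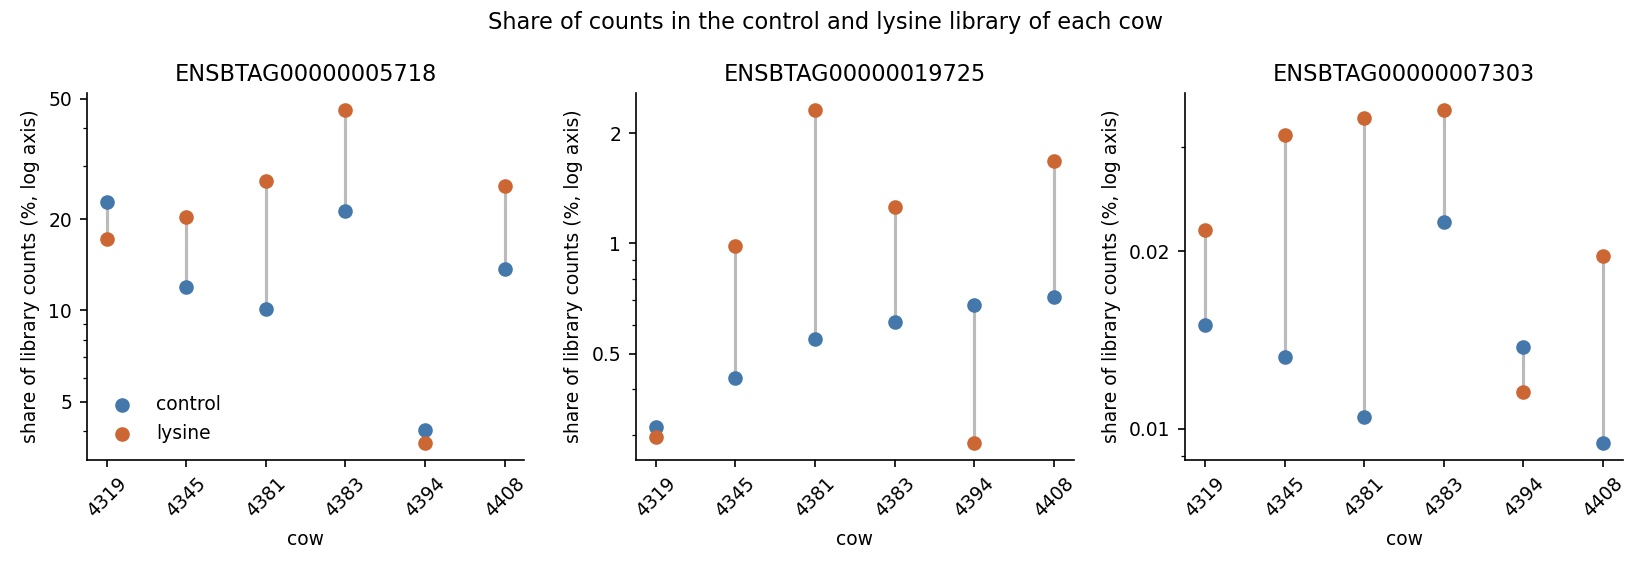
Share of library counts (percent, log axis) of each gene in the control (blue) and lysine (orange) library of each of the 6 cows, with a grey line joining the libraries of a cow. Cow 4394 lies low for ENSBTAG00000005718 in both libraries (4.04% and 3.65%), and the lysine point lies above the control point in cows 4345, 4381, 4383 and 4408 for all 3 genes.

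The spread that singled out these genes was wide beside that of other well-measured genes. Over the 12 libraries the SD of log2 normalised CPM was 1.45 for ENSBTAG00000005718, 1.31 for ENSBTAG00000019725 and 1.002 for ENSBTAG00000007303. The median over the 7358 genes averaging at least 5 CPM was 0.50. Of those genes, 96.1%, 94.5% and 89.6% had a smaller SD than the 3 genes in that order. Genes of like rank varied less than each of the 3, though those next to the 2 abundant ones lay above that median: the most abundant gene of the table had an SD of 0.60 and the third 0.54, the eighth 0.62 and the tenth 0.86, and the genes just above and below ENSBTAG00000007303 had 0.42 and 0.38. Because the genes were picked for this spread, these values describe the choice.

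**Figure D2:**
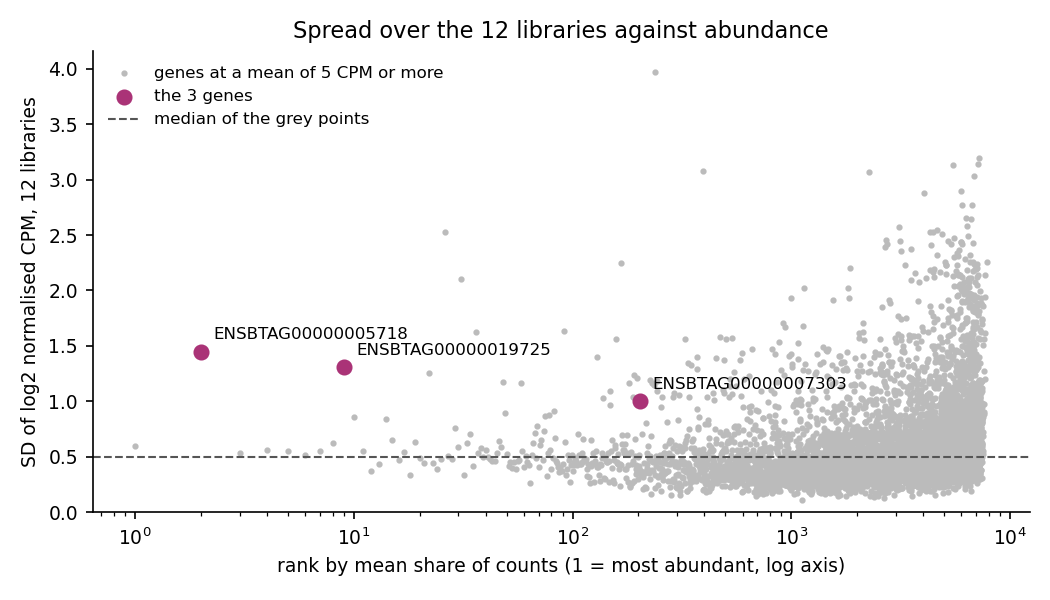
SD of log2 normalised CPM over the 12 libraries against rank by mean share of counts (log axis) for the 7358 genes averaging at least 5 CPM (grey) and the 3 genes (purple), with the median SD of 0.50 as a dashed line. The 2 most abundant of the 3 genes, at SDs of 1.45 and 1.31, stand above the other 8 of the 10 most abundant genes.

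The lysine difference was larger after normalisation by TMM than in shares of counts, whose totals include the genes studied here. An unplanned fit was scaled only by the totals of counts outside these genes. Its log2 fold changes were 0.81 for ENSBTAG00000005718, 0.94 for ENSBTAG00000019725 and 1.02 for ENSBTAG00000007303. In that order, the fit with TMM gave 0.91, 1.03 and 1.12, and the fit with library totals 0.61, 0.73 and 0.82. What sets these fits apart was not tested. The mean within-cow log2 difference was 0.60 ± 0.72 in shares and 0.91 ± 1.24 in normalised CPM for ENSBTAG00000005718, 0.70 ± 1.18 and 1.01 ± 1.51 for ENSBTAG00000019725, and 0.82 ± 0.67 and 1.12 ± 0.96 for ENSBTAG00000007303 (SD, n = 6 cows). For ENSBTAG00000005718 the control libraries held 132693 ± 78964 normalised CPM and the lysine libraries 342522 ± 366436 (mean ± SD, n = 6 each). The lysine library of cow 4383 reached 1031200, a value possible only because its library size was scaled down by the factor 0.44. The fitted log2 fold change within cows was 0.91 ± 0.43 (SE, edgeR with cow as a block). After normalisation 5 of 6 cows were higher with lysine, as were at least 5 cows for 11.7% of the 11323 genes tested. Nothing is read from that count, since the choice of the gene used this contrast.

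For ENSBTAG00000019725 the control libraries held 4916 ± 1322 normalised CPM and the lysine libraries 15954 ± 15188 (mean ± SD, n = 6 each). The fitted log2 fold change was 1.03 ± 0.49 (SE). In 4 of 6 cows the lysine library was the higher, and 35.4% of all tested genes were higher in at least 4. The SD of the lysine libraries was thus close to their mean.

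For ENSBTAG00000007303 the values were 126 ± 40.1 and 342 ± 272 normalised CPM, and the fitted log2 fold change was 1.12 ± 0.31 (SE). After normalisation it was higher with lysine in 6 of 6 cows, like 1.57% of tested genes, but in cow 4394 by only 0.02 on the log2 scale. As a share of counts it was higher in 5 of 6 cows. For comparison, the genes next to it in rank had log2 fold changes of -0.24 and 0.02.

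Cows 4381 and 4383 carried most of the lysine difference of the 2 abundant genes. Within cow 4381 the lysine library was higher by 2.01 (ENSBTAG00000005718), 2.69 (ENSBTAG00000019725) and 2.29 (ENSBTAG00000007303) on the log2 scale of normalised CPM, and within cow 4383 by 2.58, 2.52 and 2.11. In cows 4345 and 4408 the differences lay between 0.64 and 1.26. Without cows 4381 and 4383, a setting chosen after seeing the data, the log2 fold changes were 0.22 for ENSBTAG00000005718, 0.21 for ENSBTAG00000019725 and 0.58 for ENSBTAG00000007303. Without cow 4394, whose control library held the fewest genes, they were 1.09, 1.43 and 1.35.

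Single cows and a term for depth moved these values by more than 1.5 times for the 2 abundant genes. ENSBTAG00000005718 had a log2 fold change of 0.58 without cow 4383 and 0.55 when the log2 library total was a covariate. Scaling by library totals alone gave it 0.61, a smaller move. ENSBTAG00000019725 had 0.67 without cow 4381 and 0.68 when the log2 library total was a covariate. The 3 genes stayed higher with lysine in each of these fits. The part of library depth and of the TMM factor in these differences was not tested.

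Differences between cows are part of the spread for which the genes were chosen, so a test of them is not independent of that choice and nothing is read from it. None of the 3 passed: the adjusted p over all genes was 0.127 for ENSBTAG00000005718, 0.358 for ENSBTAG00000019725 and 0.224 for ENSBTAG00000007303 (edgeR quasi-likelihood F test, Benjamini-Hochberg), where 1.42% of genes passed at an adjusted p under 0.05. ENSBTAG00000005718 did pass when libraries were scaled by their totals alone (adjusted p = 0.025 by edgeR), and ENSBTAG00000007303 with DESeq2 (adjusted p = 0.0099). Cow took 72.5%, 53.3% and 45.1% of the variance of their log2 levels, against a median of 55.5% over all tested genes.

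The order of the cows differed between the genes. By the mean log2 level of its 2 libraries, ENSBTAG00000005718 was highest in cow 4383 (18.7), then 4381 (17.8), 4319 (17.6), 4408 (17.4) and 4345 (16.8), and lowest in cow 4394 (14.9). The step of 1.95 down to cow 4394 exceeded the median gap of 0.88 between the libraries of a cow, and so, barely, did the step of 0.89 from the first cow to the second, while the other 3 neighbours were closer than that. Cow 4394 also held the lowest ENSBTAG00000007303 level, at 6.61, with cow 4383 again highest at 8.55. For ENSBTAG00000019725 cow 4381 was highest (13.9) and cow 4319 lowest (11.6), although cow 4319 was the third highest for the other two genes. For ENSBTAG00000019725 and ENSBTAG00000007303 all 5 steps between neighbouring cows were smaller than the median gap between the libraries of a cow (1.16 and 1.10).

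The B code showed no difference past the threshold. Levels in B2 against B1 cows, from counts summed per cow (3 cows each), differed by a log2 fold change of -0.47 (95% interval -2.76 to 1.82) for ENSBTAG00000005718, 0.92 (-1.09 to 2.93) for ENSBTAG00000019725 and -0.06 (-1.66 to 1.55) for ENSBTAG00000007303. Each adjusted p was 0.9999 by the edgeR quasi-likelihood test, and 0% of the 12151 genes in that fit passed. The intervals span differences of more than 2 on the log2 scale for the 2 abundant genes, so differences in level of that size between the B codes would not be told from 0 here. With a cow left out, the difference of ENSBTAG00000019725 ran from 0.015 (without cow 4381) to 2.26 (without cow 4383). That of ENSBTAG00000005718 ran from -1.02 to 0.80 and that of ENSBTAG00000007303 from -0.78 to 0.96. A sum of counts gives more weight to the deeper library of a cow, so treatment and depth enter these levels. With limma on cow means, where both libraries count alike, the differences were 0.30 for ENSBTAG00000005718, 0.88 for ENSBTAG00000019725 and -0.13 for ENSBTAG00000007303.

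In the 3 B2 cows (4345, 4381 and 4408) every gene was higher with lysine, by a mean of 1.20 ± 0.72 for ENSBTAG00000005718, 1.67 ± 0.88 for ENSBTAG00000019725 and 1.50 ± 0.69 for ENSBTAG00000007303 (log2, SD, n = 3). In the 3 B1 cows the mean differences were 0.63 ± 1.76, 0.34 ± 1.90 and 0.75 ± 1.18, with cow 4383 far above cows 4319 and 4394. The test of this difference did not pass for any of the 3: it was 0.62 (95% interval -1.27 to 2.51, adjusted p = 0.881) for ENSBTAG00000005718, 1.42 (-0.52 to 3.35, adjusted p = 0.745) for ENSBTAG00000019725 and 0.77 (-0.52 to 2.06, adjusted p = 0.772) for ENSBTAG00000007303 (edgeR interaction test). No gene of the table passed, or 0%. For ENSBTAG00000005718 the sign turned without cow 4319 (-0.16) and when the log2 library total was a covariate (-0.25). The same covariate brought ENSBTAG00000019725 to 0.58 and ENSBTAG00000007303 to 0.25, and leaving out cow 4394 or cow 4383 brought them to 0.62 or 2.41 and to 0.35 or 1.43.

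The P code was lower by 1 in the lysine library than in the control in cows 4319, 4345, 4381 and 4383, and higher in cows 4394 and 4408. ENSBTAG00000019725 was higher with lysine by a mean of 1.44 ± 1.49 in the first 4 cows and 0.13 ± 1.59 in the other 2 (log2, SD). For ENSBTAG00000005718 the means were 1.10 ± 1.52 and 0.53 ± 0.58, and for ENSBTAG00000007303 1.41 ± 1.002 and 0.54 ± 0.75. All 3 differences thus pointed the same way, and none passed: they were -0.60 (95% interval -2.67 to 1.46, adjusted p = 0.931) for ENSBTAG00000005718, -1.35 (-3.47 to 0.77, adjusted p = 0.817) for ENSBTAG00000019725 and -0.88 (-2.22 to 0.46, adjusted p = 0.814) for ENSBTAG00000007303 (edgeR interaction test, 0% of genes passed). The second group holds only 2 cows, and within cows a P term and this order cannot be told apart. With a cow left out the differences ran from -1.23 to -0.08 for ENSBTAG00000005718 (without cow 4319 and cow 4383), and from -2.49 to -0.23 for ENSBTAG00000019725 and -1.42 to -0.36 for ENSBTAG00000007303 (without cow 4408 and cow 4394).

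P codes 3 and 4 are the codes that hold libraries of both groups, 2 of each, from different cows. Under P code 3, the lysine libraries (cows 4381 and 4383) lay above both controls (cows 4319 and 4345) for all 3 genes: 457069 and 1031200 against 92249 and 262184 normalised CPM for ENSBTAG00000005718, 28278 and 39589 against 3325 and 3618 for ENSBTAG00000019725, and 576 and 781 against 102 and 172 for ENSBTAG00000007303. Under P code 4, the lysine libraries (cows 4394 and 4408) lay on both sides of the controls (cows 4381 and 4383). For ENSBTAG00000005718 they were 31143 and 243779 against 113509 and 172074, for ENSBTAG00000019725 2428 and 15885 against 4934 and 6146, and for ENSBTAG00000007303 98.4 and 186 against 117 and 181. The mean log2 difference between lysine and control was 2.14, 3.27 and 2.34 under P code 3 and -0.68, 0.17 and -0.11 under P code 4, so lysine and control libraries were apart within code 3 and overlapped within code 4. With 2 libraries a side from different cows, cow and treatment cannot be told apart here.

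**Figure D3:**
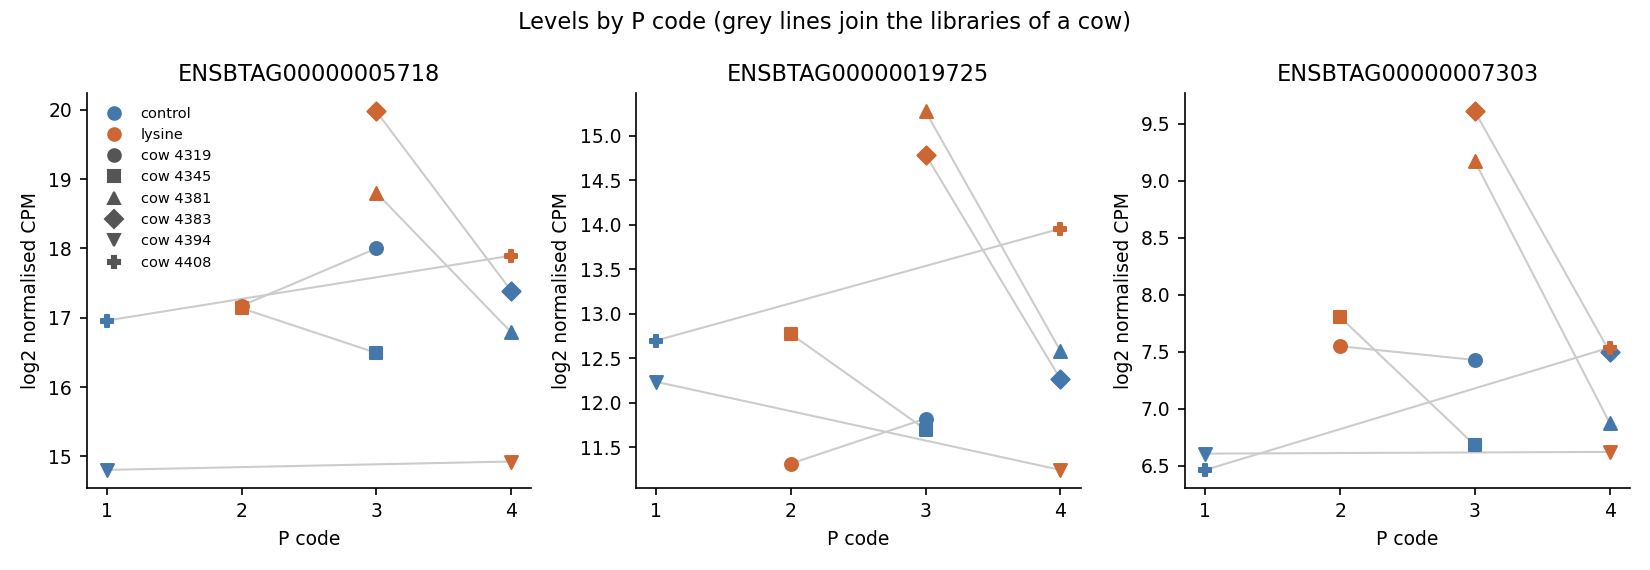
Log2 normalised CPM of each gene by P code, control in blue and lysine in orange, with a marker for each cow and grey lines joining its libraries. The lysine libraries of cows 4381 and 4383 lead at code 3 for all 3 genes, while at code 4 lysine and control libraries overlap.

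The within-cow differences of the 3 genes ran in parallel, with correlations whose adjusted p lay on the threshold. The genes were chosen partly on these differences, so the p-values are not independent of that choice. The log2 differences (lysine minus control) of ENSBTAG00000019725 and ENSBTAG00000007303 correlated over the 6 cows at Pearson r = 0.99 (exact two-sided permutation p = 0.0083, adjusted p = 0.05), and Spearman rho was 0.94 (exact permutation p = 0.017, adjusted p = 0.067). Those of ENSBTAG00000005718 and ENSBTAG00000019725 gave r = 0.91 (exact permutation p = 0.021, adjusted p = 0.05; rho = 0.89, exact permutation p = 0.033, adjusted p = 0.067). Those of ENSBTAG00000005718 and ENSBTAG00000007303 gave r = 0.93 (exact permutation p = 0.019, adjusted p = 0.05; rho = 0.83, exact permutation p = 0.058, adjusted p = 0.1). P-values were adjusted over 12 relations, the 3 pairs and the 3 library total relations at 2 levels, and an adjusted p of 0.05 lies on the threshold without being under it.

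Leaving out 2 cows gave r of 0.99 (ENSBTAG00000019725 with ENSBTAG00000007303), 0.94 (ENSBTAG00000005718 with ENSBTAG00000019725) and 0.99 (ENSBTAG00000005718 with ENSBTAG00000007303) over the other 4. The cows left out were those farthest from the median difference of the gene named last in each pair. These were cows 4319 and 4394 for ENSBTAG00000019725, and cows 4381 and 4394 for ENSBTAG00000007303. Cow 4383 thus stayed in each time, and the relations without both cows 4381 and 4383 were not tested. Shares of counts do not carry the TMM factor that all genes of a library have in common. On shares, the r of these 3 pairs over 6 cows was 0.95, 0.89 and 0.76, in the order given above. For ENSBTAG00000019725 with ENSBTAG00000007303 the adjusted p on that scale was 0.017 (exact permutation), under the threshold. Each B code holds 3 cows, too few for a value within codes.

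Among 7357 well-measured genes, only 0.01% had differences more like those of ENSBTAG00000019725 than ENSBTAG00000007303 did, and 1.93% had differences more like those of ENSBTAG00000005718 than ENSBTAG00000019725 did. These ranks are a description over 6 cows. The 3 genes were all picked for a wide spread and for being higher with lysine. Both properties draw on these same within-cow differences, so neither the correlations nor the ranks are independent of that choice.

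Between cows the correlations were lower than within cows. Differences between cows are part of the spread for which the genes were chosen, so these p-values are not independent of that choice. The choice thus bears on both levels, and what sets them apart was not tested. Cow means of ENSBTAG00000005718 and ENSBTAG00000007303 correlated at r = 0.86 (exact permutation p = 0.019, adjusted p = 0.05; rho = 0.94, exact permutation p = 0.017, adjusted p = 0.067), and at 0.62 without cows 4383 and 4394, so that the relation leans on those cows. ENSBTAG00000019725 gave r = 0.63 with ENSBTAG00000005718 (rho = 0.60; exact permutation p = 0.158 and 0.242, adjusted p = 0.238 and 0.363) and r = 0.62 with ENSBTAG00000007303 (rho = 0.54; exact permutation p = 0.211 and 0.297, adjusted p = 0.281 and 0.396). These were 0.93 without cows 4319 and 4381, the farthest from the median of ENSBTAG00000019725, and 0.34 without cows 4383 and 4394, the farthest for ENSBTAG00000007303. On shares of counts the r of cow means was 0.74 for ENSBTAG00000005718 with ENSBTAG00000007303, 0.38 for ENSBTAG00000005718 with ENSBTAG00000019725 and 0.19 for ENSBTAG00000019725 with ENSBTAG00000007303. As a description over all 12 libraries, which share cows, depth and scaling factors in pairs or within a library, r was 0.73, 0.86 and 0.79 for ENSBTAG00000005718 with ENSBTAG00000019725, ENSBTAG00000005718 with ENSBTAG00000007303, and ENSBTAG00000019725 with ENSBTAG00000007303, and 0.52, 0.70 and 0.59 on shares of counts.

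**Figure D4:**
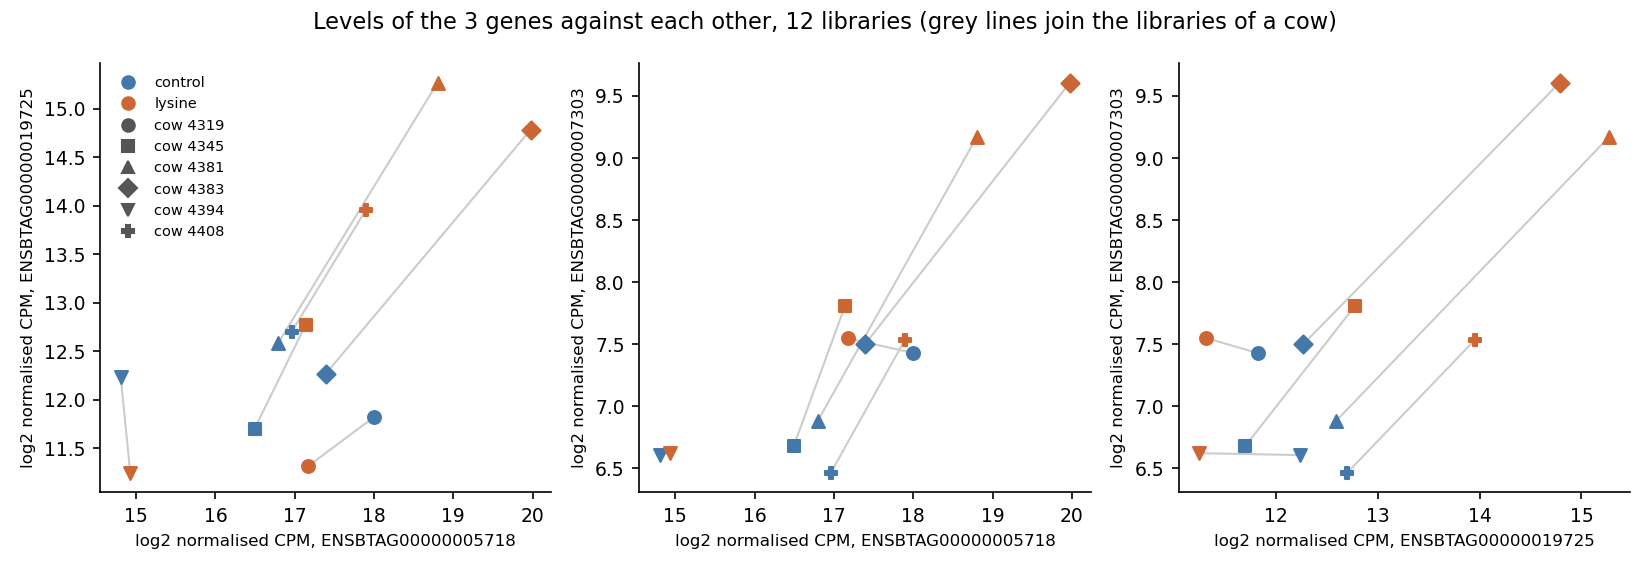
Log2 normalised CPM of the 3 genes against each other in the 12 libraries, control in blue and lysine in orange, with a marker for each cow and grey lines joining its libraries. The lines of cows 4345, 4381, 4383 and 4408 run up and to the right in all 3 panels, while cow 4394 hardly moves in the middle panel and falls for ENSBTAG00000019725.

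The ratio of the genes to each other is a measure that no library scaling can change. Counts of ENSBTAG00000005718 per count of ENSBTAG00000019725 ran from 5.94 in the control of cow 4394 to 72.5 in the control of cow 4319. Between the 2 libraries of a cow this ratio differed only 1.05-fold to 2.16-fold (median 1.30), while its geometric mean per cow differed 7.42-fold between cows. For ENSBTAG00000005718 per ENSBTAG00000007303 the ratio differed 1.08-fold to 1.93-fold within cows and 4.52-fold between cows, and for ENSBTAG00000019725 per ENSBTAG00000007303 1.04-fold to 2.01-fold and 4.75-fold. The range between cows rested in part on single cows: without cow 4394 that of ENSBTAG00000005718 per ENSBTAG00000007303 was 1.81-fold, below the largest fold within a cow, and without cow 4319 that of ENSBTAG00000019725 per ENSBTAG00000007303 was 2.56-fold. For ENSBTAG00000005718 per ENSBTAG00000019725 it was 4.09-fold without cow 4319 and 4.44-fold without cow 4394, in each case wider than within any cow. A fold within a cow compares 2 libraries, while a fold between cows is the highest cow value over the lowest. The latter tends to be wider for that alone, and none of these ranges was tested.

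Library depth differed within cows as well. The lysine library held 4.48 times the counts of the control in cow 4381, 3.88 times in cow 4383, 1.51 times in cow 4345, 1.44 times in cow 4408, 1.34 times in cow 4394 and 0.175 times in cow 4319. The within-cow difference of ENSBTAG00000005718 correlated with that of the log2 library total at r = 0.92 (exact permutation p = 0.0097, adjusted p = 0.05; rho = 0.89, exact permutation p = 0.033, adjusted p = 0.067), and at 0.97 without cows 4319 and 4381. A relation of this gene to depth was already known when the test was chosen.

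For ENSBTAG00000007303 the same relation gave r = 0.81 (exact permutation p = 0.035, adjusted p = 0.069; rho = 0.94, exact permutation p = 0.017, adjusted p = 0.067), and for ENSBTAG00000019725 r = 0.77 (exact permutation p = 0.053, adjusted p = 0.090; rho = 0.89, exact permutation p = 0.033, adjusted p = 0.067). Without cows 4319 and 4381 these were 0.85 and 0.77. On shares of counts they were 0.38 for ENSBTAG00000007303 and 0.54 for ENSBTAG00000019725, while ENSBTAG00000005718 stayed at 0.86 (exact permutation p = 0.0028, adjusted p = 0.017). On shares of the counts outside the 3 genes, r was 0.57, 0.62 and 0.88 in that order. The genes were chosen partly on these within-cow differences, so none of these p-values is independent of that choice. For ENSBTAG00000005718 the relation to depth was also known beforehand, so its adjusted p under the threshold is not independent support. The 2 deep lysine libraries of cows 4381 and 4383 also had the lowest TMM factors, which raise the normalised CPM of every gene in them. The genes studied here together held 29.0% and 47.1% of the counts in those libraries, the largest sums of any library. In the lysine library of cow 4408 they held 27.5%, at a TMM factor of 1.06. Whether the low factors follow from these sums was not tested. Whether depth, scaling and lysine act separately was not tested.

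Between cows, no relation of depth and level passed the threshold. Cow means against the mean log2 library total gave r = -0.01 for ENSBTAG00000005718 (rho = -0.31; exact permutation p = 0.983 and 0.564), 0.36 for ENSBTAG00000019725 (rho = 0.43; exact permutation p = 0.453 and 0.419) and -0.04 for ENSBTAG00000007303 (rho = -0.20; exact permutation p = 0.929 and 0.714). The adjusted p was 0.983, 0.543 and 0.983 for r and 0.615, 0.503 and 0.714 for rho. Without cows 4345 and 4381 r was -0.11, 0.56 and -0.41. The mean level of ENSBTAG00000005718 was the lowest in cow 4394, whose libraries, at 13.3 and 17.9 M counts, were not the shallowest.

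**Figure D5:**
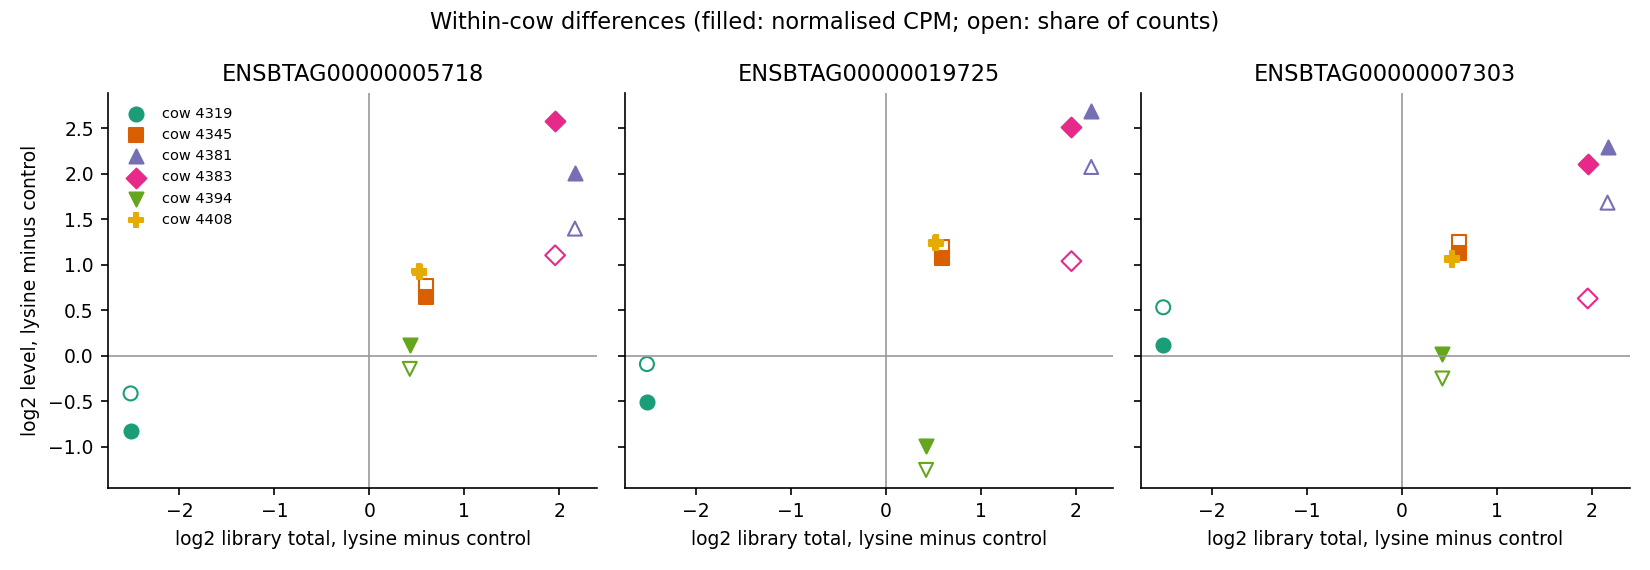
Within-cow difference of each gene (lysine minus control, log2; filled markers normalised CPM, open markers share of counts) against the within-cow difference of the log2 library total, 1 marker for each of the 6 cows. Cow 4319, whose lysine library held 0.175 times the control counts, lies at the left, and cows 4381 and 4383 lie at the upper right with the widest gap between filled and open markers.

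The genes whose pattern over the 12 libraries was most like each of the 3 were looked up among 7355 other genes averaging at least 5 CPM. Closest to ENSBTAG00000005718 was ENSBTAG00000014752, ranking 58 by mean share, with r = 0.95 in log2 normalised CPM and 0.90 on shares of counts. Closest to ENSBTAG00000019725 was ENSBTAG00000004238, ranking 2350, with r = 0.94 and 0.88. Both were higher with lysine in 4 of 6 cows after normalisation, with log2 fold changes of 0.54 and 0.60. The 3 genes closest to ENSBTAG00000007303 had r of 0.92, 0.90 and 0.89 in log2 normalised CPM. On shares of counts these were 0.80, 0.74 and 0.039, so the likeness of the last was seen only after normalisation.

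The lists of most alike genes overlapped. Of the 50 genes most like each of the 3, ENSBTAG00000005718 and ENSBTAG00000007303 had 25 in common (50%), ENSBTAG00000019725 and ENSBTAG00000007303 had 23 (46%), and ENSBTAG00000005718 and ENSBTAG00000019725 had 21 (42%), while 17 genes stood in all 3 lists. On shares of counts 15 genes did. The median r over all genes compared was -0.02 for each of the 3 genes, and 38, 24 and 17 genes exceeded r = 0.8 with ENSBTAG00000005718, ENSBTAG00000019725 and ENSBTAG00000007303. All these values come from the same 12 libraries, whose shared cows, depth and scaling factors enter every one of them. Each list took 50 of the 7355 genes compared. Over these libraries the 3 genes correlated with each other at r from 0.73 to 0.86. An overlap of their lists follows in part from that and is no separate result.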

How the data were processed

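RNA from the milk fat of 6 cows was sequenced as 12 libraries. The authors deposited whole-number read counts per gene, per the file headers 1 column per library, not normalized and not pooled. No aligner, counter, strand setting, genome build or annotation can be named, each being not given in the sources used here. Without a strand setting, reads of overlapping genes, antisense genes or near-identical copies cannot be told apart. Per the labels' protocols, milk fat was extracted with Trizol and cleaned on a column. Groups and cow numbers come from the titles. The 3 genes, the gene lists and the tests were chosen with earlier results of these data known. The named genes are the 3 genes and, as no ID had a name, the most alike gene of 2 of them. The gene lists and cell type markers, fixed by symbol, were not tested.

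Counts were fitted with edgeR 4.0.16 (R 4.3.3) after filterByExpr (minimum count 10; 11323 genes holding 99.9% of counts), with TMM and robust quasi-likelihood, cow as a block, two-sided tests and Benjamini-Hochberg adjustment over all genes at 0.05. Each SE is the absolute fold change (log2) divided by the root of its F. B code levels used counts summed per cow. Relations over cows used CPM on the log2 scale, prior count 2, and exact permutation. Shares carry 95% Wilson intervals. The fits were tested on simulated data. Since both libraries of a pair are from 1 animal, cow pairs them; deviations from the group means correlated between them at -0.02 to 0.66 across genes (median 0.19), against a median of -0.03 between cows. Tests over cows take the 6 animals as replicates, with 1 library per cow and treatment. Alternatives used other size factors, library totals, no filter, DESeq2 1.42.0, limma 3.58.1, a depth covariate, no cow block, and each cow left out. No columns were left out.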

Additional observations from a re-analysis of the deposited data

How the results depend on the processing

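The lysine log2 fold change kept its sign in every fit run. Its SE with DESeq2 was 0.99 for ENSBTAG00000005718 and 0.95 for ENSBTAG00000019725, against 0.43 and 0.49 by edgeR. For ENSBTAG00000007303 the SE was 0.29 with DESeq2 and 0.31 by edgeR. The log2 fold change was 1.37 for ENSBTAG00000005718, 1.70 for ENSBTAG00000019725 and 1.44 for ENSBTAG00000007303 with no replicate block. Leaving out a cow gave 0.58 to 1.25, 0.67 to 1.43 and 0.89 to 1.35. Only the P codes taken alone moved it by more than the SD between cows: -0.68 (ENSBTAG00000005718, P code 4), 3.27 (ENSBTAG00000019725, P code 3), and 2.34 and -0.11 (ENSBTAG00000007303, P codes 3 and 4). The cow test passed with library totals (adjusted p = 0.025) and with no low-count filter (adjusted p = 0.0022) for ENSBTAG00000005718 and with DESeq2 (adjusted p = 0.0099) for ENSBTAG00000007303; the cause was not tested. The B code difference in the lysine effect of ENSBTAG00000005718 became -0.25 with the depth covariate and ran from -0.16 to 1.55 with a cow left out. The B code level difference of ENSBTAG00000005718 became 0.30 with limma on cow means and ran from -1.02 to 0.80 with a cow left out, and that of ENSBTAG00000007303 became 0.19 with library totals and ran from -0.78 to 0.96. The P order differences kept their sign, passed nowhere and moved by over 1.5 times with single cows left out; without cow 4394 or 4408 they rest on 1 cow, assumed to vary like the others.

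Against library totals, cow means of ENSBTAG00000005718 turned to r = 0.032 on shares and 0.00086 on shares outside the 3 genes, and ran from -0.61 to 0.26 with a cow left out; those of ENSBTAG00000007303 turned to 0.045 on shares and ran from -0.29 to 0.37. On shares, 2 within-cow relations came under the threshold: ENSBTAG00000019725 with ENSBTAG00000007303 (r = 0.95, adjusted p = 0.017) and ENSBTAG00000005718 with the total (r = 0.86, adjusted p = 0.017). They draw on differences that the choice of the genes used. No relation passed once a cow was left out. The smallest p that 5 cows allow is 0.0083 before adjustment over 12. A relation could thus pass only alongside others of like p, and not passing says little of stability. With a cow left out, the r between genes within cows ran from 0.89 to 0.996. Over all genes, the cow test called 161, and 9 to 1518 in the alternatives (9 without cow 4345, 1518 with DESeq2); the B code and P order tests of the lysine effect called 0, and up to 39 (DESeq2) and 847 (without cow 4408); the lysine test called 0, and 1 with no filter; the B level test called 0, and 3 with DESeq2. At an unadjusted p under 0.05 by edgeR, 286, 784, 796 and 143 genes stood in the lysine, B code, P order and B level tests. Counting error was small for all 3 genes; the part of library depth in their differences was not tested.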
